A study of Mus musculus with 2 samples.

Results

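The 42 genes described here code for collagens and other proteins of the extracellular matrix. They were taken by symbol from a fixed list among the 32285 mouse genes that the count tables hold. The list was chosen with earlier results of these data known. They were followed in 2 single-cell RNA libraries of mouse pancreatic tumors. Each tumor had been grown by injecting KPC cells, a mouse pancreatic cancer line, into the pancreas. The library labelled FLOX came from mice with a floxed MCT1 gene (MCT1 fl/fl), and the library labelled MCT1-KO from mice in which Col1a2-CreERT2, a tamoxifen-activated Cre recombinase under the Col1a2 promoter, was to delete MCT1 from pancreatic stellate cells (PSCs). MCT1, encoded by Slc16a1, carries lactate and other monocarboxylates across the cell membrane. Mice of this model were male and were given tamoxifen or corn oil before the tumor cells. Which of these the FLOX mice received, whether they carried the Cre, how many mice went into each library and how old the mice of this line were are not given in the sources used here. The Cre acts in any cell that uses the Col1a2 promoter, and not in the injected tumor cells. Neither condition was repeated, which is why differences between the libraries carry no test and every interval reflects counting error alone.

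Fibroblasts and PSCs build most of the collagen-rich stroma of pancreatic cancer. Fibrillar collagens form the tensile fibrils, and fibril-associated and beaded-filament collagens and small leucine-rich proteoglycans coat, space and link them. Endothelial cells and epithelia rest on basement membranes of laminin, collagen IV, nidogen and perlecan, elastic fibres give recoil, and matricellular proteins such as tenascin-C, periostin and SPARC act mainly on cells and on other matrix proteins. A collagen chain is hydroxylated, folded with its partners into a triple helix and secreted before lysyl oxidases crosslink it outside the cell.

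The DNA just before the start of 3 members is shown first. The Col1a2 promoter drives the Cre. Tnc and Col6a3 are the members whose ratio between the libraries lay past 1.5-fold on opposite sides in PSC-like and tumor-like cells. Each run is the 250 bases before the most upstream RefSeq start on GRCm38.p6, written 5′ to 3′ along the gene, with the TATA box (TATAAA), the CCAAT box and the GC box (GGGCGG) of either strand in capitals. Col1a2 lies at chr6:4505368-4505617 on the plus strand, Col6a3 at chr1:90843972-90844221 on the minus strand and Tnc at chr4:64047016-64047265 on the minus strand. The window of Col1a2 lies before the RefSeq start but inside the longer gene of the GENCODE annotation, which starts upstream at position 4504814. The fragment used in the Cre transgene is not given in the sources used here.
Col1a2: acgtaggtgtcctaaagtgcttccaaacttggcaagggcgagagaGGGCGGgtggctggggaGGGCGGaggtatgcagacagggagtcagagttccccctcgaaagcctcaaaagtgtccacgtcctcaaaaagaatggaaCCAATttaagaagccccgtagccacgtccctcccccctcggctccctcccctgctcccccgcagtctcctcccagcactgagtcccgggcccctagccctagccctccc
Col6a3: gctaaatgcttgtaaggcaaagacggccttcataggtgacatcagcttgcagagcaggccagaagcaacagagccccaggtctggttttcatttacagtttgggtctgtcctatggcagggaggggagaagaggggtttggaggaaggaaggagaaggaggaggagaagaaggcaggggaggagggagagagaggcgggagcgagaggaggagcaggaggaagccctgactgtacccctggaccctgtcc
Tnc: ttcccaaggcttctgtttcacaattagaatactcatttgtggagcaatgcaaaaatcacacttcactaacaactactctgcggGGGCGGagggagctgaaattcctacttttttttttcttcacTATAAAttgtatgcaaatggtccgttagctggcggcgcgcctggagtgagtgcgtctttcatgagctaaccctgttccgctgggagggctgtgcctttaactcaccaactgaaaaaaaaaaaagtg
Col1a2 held a CCAAT box and GC boxes, Tnc a TATA box and a GC box, and Col6a3 none of the 3 motifs. Among the 30 members with such a window, TATAAA was present in 4, or 13.3%, against 13.0% of the 27025 windows of all genes. CCAAT was present in 11, or 36.7% against 34.5%, and GGGCGG in 17, or 56.7% against 33.0%. The windows of all genes were not limited to expressed genes, and 12 members, Col1a1 among them, had no window. The shares are therefore a description and not a trait of the members. A match is a description of the letters and not of a bound site.

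After barcodes with at least 500 UMIs, 200 to 5000 genes and up to 8% mitochondrial UMIs had been kept, the FLOX library held 8739 cells and the MCT1-KO library 11689, with 61149689 and 81494894 UMIs and median depths of 4069 and 3706 UMIs per cell. Of these barcodes, 59 occurred in both libraries, or 0.675% of the FLOX cells. Cells were clustered without the 42 members and other matrix genes, 98 genes in all, and clusters were named by markers that include no member. A level is given as CPM, the UMIs of a gene scaled to 1000000 UMIs of its class in a library. UMIs are counted at the 3′ end of transcripts, so levels are compared between classes and libraries and not between genes. PSC-like cells numbered 233 and 416 in the FLOX and MCT1-KO libraries, endothelial-like cells 123 and 146, and tumor-like cells 2627 and 3807. PSC-like cells are meant here as a marker class and not as purified stellate cells. The class holds fibroblast-like, mesothelial-like and mural cells, cells led by macrophage or adipocyte genes, and unnamed cells with few UMIs. Of its cells, 100 in FLOX and 171 in MCT1-KO lay in sub-clusters named as fibroblast-like or myofibroblast-like. Genes of the Y chromosome stood at 4.21 and 1.94 CPM in tumor-like cells against 234 and 208 CPM in PSC-like cells.

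The targeted gene was not lower in the library labelled MCT1-KO, and its count was close to background. Slc16a1 stood at 25.6 CPM in FLOX PSC-like cells and at 35.6 CPM in PSC-like cells labelled MCT1-KO, a ratio of 1.39 with a 95% counting interval of 1.00 to 1.95. These levels rest on 57 and 112 UMIs, beside 19.2 and 25.1 CPM in T/NK-like cells and 21.4 and 21.0 CPM in empty barcodes. In tumor-like cells, which were injected and carry no Cre, it stood at 37.8 and 46.2 CPM, a ratio of 1.22. The exons that the lox sites flank are not given in the sources used here, so a 3′ count may lie outside the deleted part, and these counts neither show nor exclude a deletion. Every direction below is therefore one between the library labelled MCT1-KO and the library labelled FLOX.

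Matrix transcripts were concentrated in PSC-like cells. The 42 members made up 5.38% of the UMIs of PSC-like cells in the FLOX library and 4.52% in the library labelled MCT1-KO, against 1.08% and 1.17% in endothelial-like, 0.674% and 0.642% in tumor-like and 0.0868% and 0.146% in T/NK-like cells. PSC-like cells were 2.67% and 3.56% of the cells and held 30.1% and 25.3% of all member UMIs, while the far more numerous tumor-like cells held 57.4% and 62.6%. Of all UMIs of kept cells, PSC-like cells held 3.65% and 3.86% and tumor-like cells 55.6% and 67.1%. Of the 42 members, 30 had their highest level in PSC-like cells in both libraries, where 13.7% of all 8585 genes with at least 50 UMIs in that class did so.

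**Figure D1:**
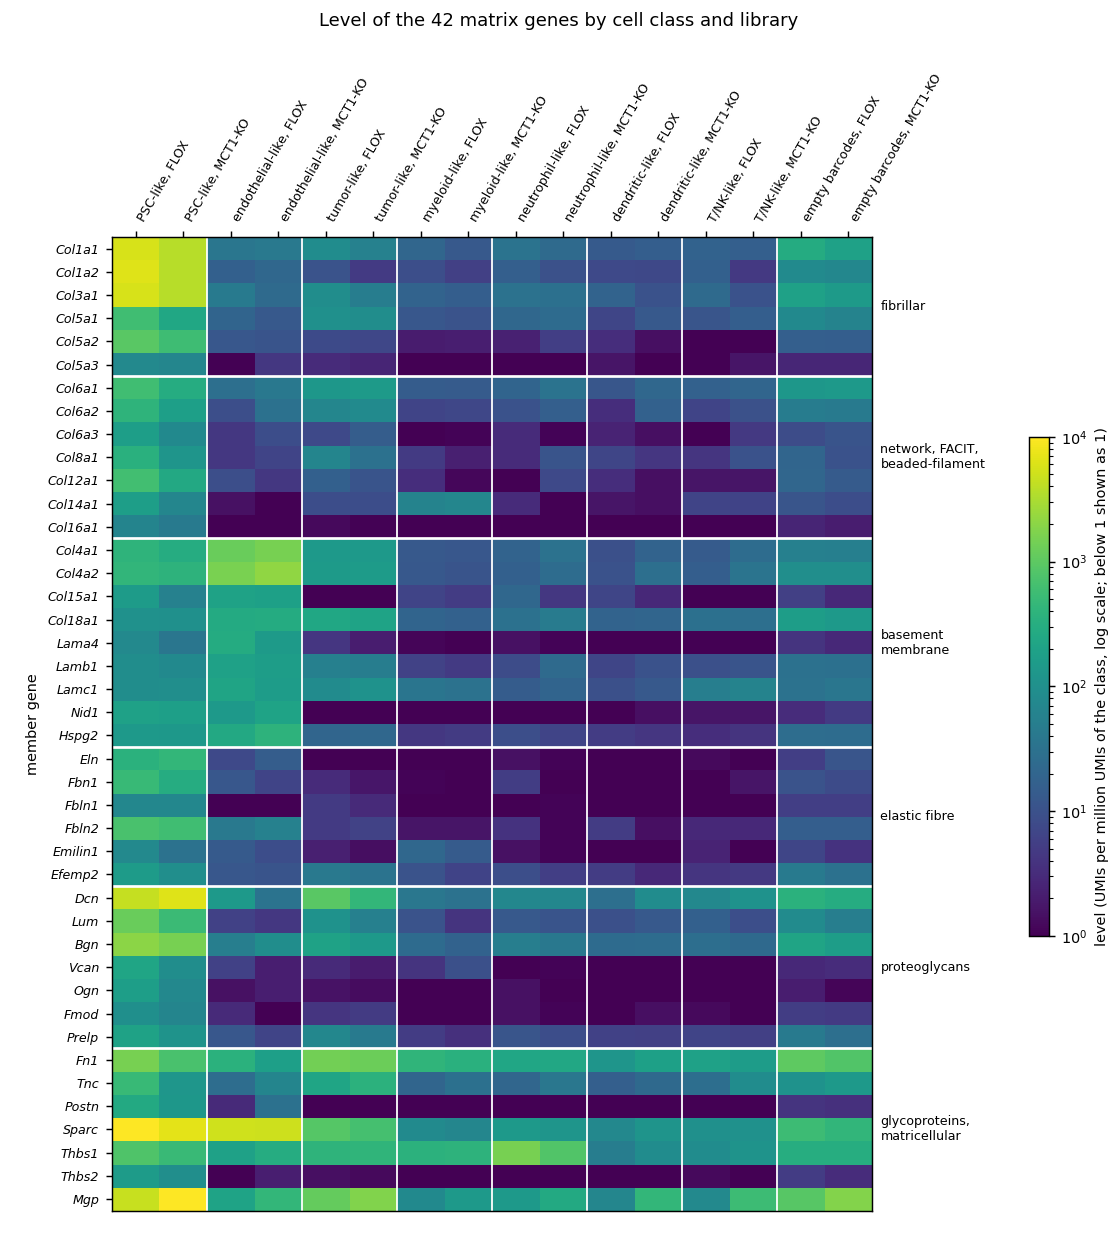
Level of each of the 42 matrix genes (rows, ordered by role) in 7 cell classes with at least 50 cells in each library and in empty barcodes (columns, FLOX and MCT1-KO side by side), as CPM on a log colour scale. The PSC-like columns are the brightest for most genes, with Col1a2 at 6470 and 3765, whereas Col4a2 is brightest in endothelial-like cells, at 1559 and 2155.

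The type I collagen chain Col1a2 was the clearest case. Its PSC-like level was 6470 CPM in FLOX and 3765 CPM in the library labelled MCT1-KO, and no other class of at least 50 cells exceeded 21.9 CPM. PSC-like cells held 95.6% and 95.9% of its UMIs in kept cells. Elastin (Eln), the core of elastic fibres, had 93.7% and 94.4% of its UMIs there, and periostin (Postn), a matricellular protein of activated fibroblasts, had 94.7% and 89.4%. At the other end, PSC-like cells held 2.43% and 2.35% of the UMIs of Col18a1 and 5.38% and 2.68% of those of fibronectin (Fn1). The share of tenascin-C (Tnc) was 11.3% in FLOX and 1.68% in MCT1-KO. Fn1 and Tnc had their highest level in PSC-like cells in the FLOX library and in tumor-like cells in the other.

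Endothelial-like cells had the highest level of 8 members in both libraries, all of the basement membrane: the collagen IV chains Col4a1 and Col4a2, Col15a1, Col18a1, the laminin chains Lama4, Lamb1 and Lamc1, and perlecan (Hspg2). The share of all genes highest in this class is not given here, so the 8 are a description alone. The nidogen Nid1, which links laminin to collagen IV, was highest in PSC-like cells in the FLOX library, at 192 CPM against 143 CPM in endothelial-like cells, and in endothelial-like cells in the other, at 208 against 179 CPM. Thrombospondin-1 (Thbs1), which is also made by blood cells, was highest in neutrophil-like cells, at 1512 and 823 CPM. Its next level was that of PSC-like cells, at 781 and 516 CPM. In myeloid-like cells Col14a1 stood at 61.4 and 69.1 CPM and Emilin1 at 22.1 and 14.3 CPM.

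Free RNA in the suspension gives matrix UMIs to cells that do not make them, so each level was set beside the higher of 2 backgrounds, T/NK-like cells and empty barcodes of 10 to 100 UMIs. At 3 times that background or more in both libraries were 34 of 42 members in PSC-like cells, where 10.8% of all genes were. The 8 members under this limit in PSC-like cells were Col6a1, Col18a1, Fn1, Tnc, Thbs1, Lamb1, Lamc1 and Efemp2. In endothelial-like cells 8 of the 16 members with at least 50 UMIs passed, against 13.1% of all genes: Col4a1, Col4a2, Col15a1, Sparc, Lama4, Lamb1, Nid1 and Hspg2. In tumor-like cells 1 of 40 members passed, against 1.45% of all genes. This was the network collagen Col8a1, at 65.0 and 31.3 CPM, or 3.26 and 3.04 times background. Tumor-like cells held 55.6% and 67.1% of the UMIs of kept cells, so empty barcodes may hold much of their RNA. A gene that these cells make can therefore miss this limit. Against T/NK-like cells alone, tumor-like Fn1 stood at 1395 and 1273 CPM against 198 and 165 CPM. Col1a2 stood at 10.5 and 4.78 CPM against 17.1 and 4.57 CPM. In myeloid-like cells 2 of 29 members with at least 50 UMIs passed, Col14a1 and Emilin1, against 4.65% of all genes.

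The reach of a member over background differed widely within PSC-like cells. Osteoglycin (Ogn) stood at 84.0 and 42.9 times background, versican (Vcan) at 76.8 and 29.0 times and Col1a2 at 78.9 and 53.7 times. Fn1 stood at 1.45 and 0.864 times, since empty barcodes themselves held it at 1026 and 834 CPM. Mgp, the matrix Gla protein that restrains calcification, stood at 5.09 and 6.60 times, with 908 and 1802 CPM in empty barcodes. In tumor-like cells Tnc reached 2.05 and 2.57 times, Dcn 2.65 and 1.47 times and Mgp 1.26 and 0.963 times, so the level of Mgp there was close to that of empty barcodes.

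**Figure D2:**
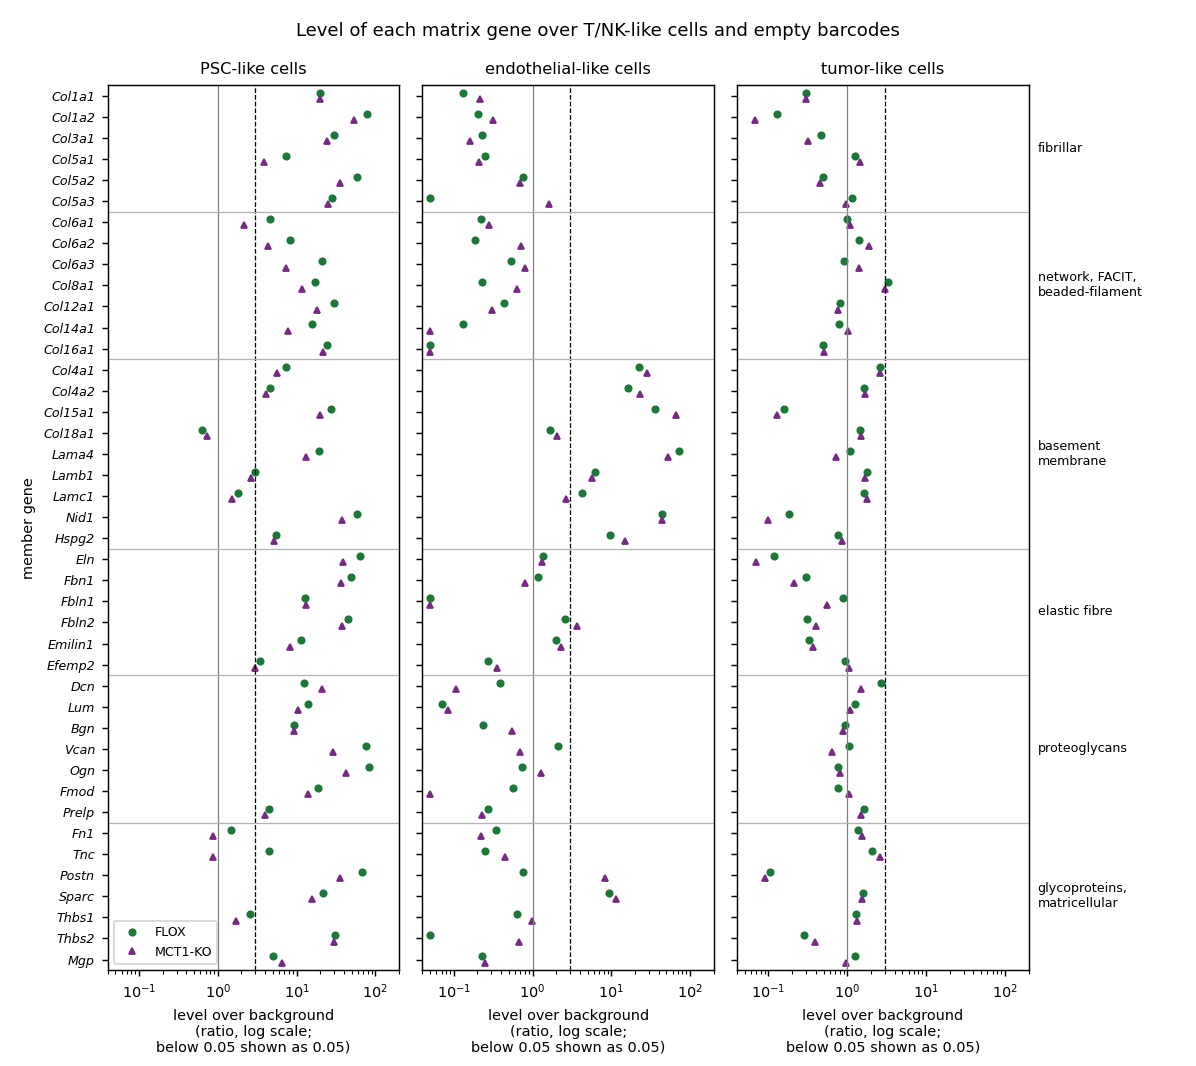
Level of each matrix gene over the higher of 2 backgrounds, T/NK-like cells and empty barcodes (ratio, log scale), in PSC-like, endothelial-like and tumor-like cells, with a circle for FLOX and a triangle for MCT1-KO; the dashed line marks 3 times background. In PSC-like cells 34 of 42 genes lie past the line in both libraries, and in tumor-like cells 1 does, Col8a1.

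Shares of cells with a UMI gave the same contrast between classes. Col1a1 was found in 91.0% of PSC-like cells of the FLOX library (95% exact interval 86.6 to 94.3%) and 85.8% of those of the library labelled MCT1-KO (82.1 to 89.0%), against 6.84% and 5.17% of T/NK-like cells, which should lack it. With each cell thinned to 1000 UMIs these shares were 79.2% and 60.6% in PSC-like and 2.59% and 1.52% in T/NK-like cells. Thinning left out the PSC-like cells under 1000 UMIs, so 207 and 381 remained. Tnc was found in 43.8% and 26.9% of PSC-like cells, or 25.1% and 8.66% after thinning, against 2.77% and 3.46% in thinned T/NK-like cells. Mgp was found in 83.3% and 91.1% of PSC-like cells, or 70.0% and 83.2% after thinning, against 7.21% and 12.1% in thinned T/NK-like cells. Median depths were 8174 and 7044 UMIs in PSC-like cells and 3086 and 2478 in T/NK-like cells.

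Within PSC-like cells most members were lower in the library labelled MCT1-KO. Of 42 members, 26 were at least 1.5-fold higher in the FLOX library, where 10.9% of all genes with 50 UMIs were. Only 1, Mgp, was at least 1.5-fold higher in the library labelled MCT1-KO, where 10.1% of all genes were. The members were chosen with earlier results of these data known, so their contrast with all genes is not independent of these data. The ratio of the library labelled MCT1-KO to FLOX had a median of 0.597 over the members and of 0.981 over all 8585 genes. It was under 1 for 37 members and at or over 1 for 5: Mgp, Dcn, Eln, Lamc1 and Fbln1. The counting interval lay wholly below 1 for 32 members, wholly above it for 3 and around it for 7. No such count over all genes is given here, so these counts describe counting error and not a trait of the members.

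The summed level of the 42 members was 53830 CPM in FLOX and 45162 CPM in MCT1-KO, a ratio of 0.839 (0.833 to 0.845). Mgp and decorin (Dcn), both with ratios above 1, weighed heavily in this sum. So did Sparc, with 26719 and 21383 UMIs and a ratio of 0.568. Without Mgp the ratio was 0.676, and without Mgp and Dcn it was 0.600. These 2 were left out for their ratios, so a lower ratio without them follows from the choice. The other 40 members made up 83.1% of the FLOX member UMIs and 59.4% of those in the library labelled MCT1-KO. By role, the ratio of the sums was 0.612 for fibrillar collagens, 0.445 for beaded-filament, network and fibril-associated collagens, 0.814 for basement membrane, 0.813 for elastic fibre, 1.06 for proteoglycans and 1.02 for glycoproteins and matricellular proteins.

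These counts depended on which cells were taken as PSC-like. When each cell was classed by its own marker UMIs (161 FLOX and 119 MCT1-KO cells), 9 members were at least 1.5-fold higher in FLOX and 4 in MCT1-KO, the median ratio was 0.879 and the summed ratio 1.01. Of all genes with 50 UMIs in those cells, 10.03% and 6.54% were past the same limits. With cells of at most 2 immune UMIs (30 and 175 cells), 11 members were at least 1.5-fold higher in FLOX and 6 in MCT1-KO, where 17.1% and 25.2% of all genes were, the median ratio was 0.952 and the summed ratio 1.23. The cells so kept held 83083 and 884961 UMIs. This limit is a count of UMIs and so favours cells of low depth, and the part of depth was not tested. Beside the result, PSC-like cells carried immune RNA at 2631 and 2474 CPM and acinar RNA at 109 and 1849 CPM, where empty barcodes held acinar RNA at 345 and 18302 CPM. By these acinar genes the share of free RNA in PSC-like cells was 31.4% in FLOX and 10.1% in MCT1-KO, which may be too high for matrix genes. With it subtracted 31 members were at least 1.5-fold higher in FLOX and 1 in MCT1-KO, against 17.6% and 17.5% of all genes. The median ratio was 0.463. Col1a1 fell only from 12979 to 12775 UMIs in FLOX and from 11868 to 11807 in MCT1-KO. Class UMIs fell from 2230300 to 1546049 and from 3142555 to 2826728, so its lower ratio (0.505) follows from these totals. Empty barcodes held immune RNA at 9756 and 5550 CPM, against 660 and 407 CPM in the inflammatory fibroblast-like cells described below. Of the PSC-like cells, 11 of 233 and 63 of 416 had no immune UMI, and 22 and 47 had a doublet score in the top 8% of their library. With those likely doublets left out (211 and 369 cells), 24 members were at least 1.5-fold higher in FLOX and 1 in MCT1-KO. Of all genes, 11.2% and 9.82% were past these limits, and the median ratio of the members was 0.629. The part of immune RNA in the result, and of doublets that the score missed, was not tested.

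**Figure D3:**
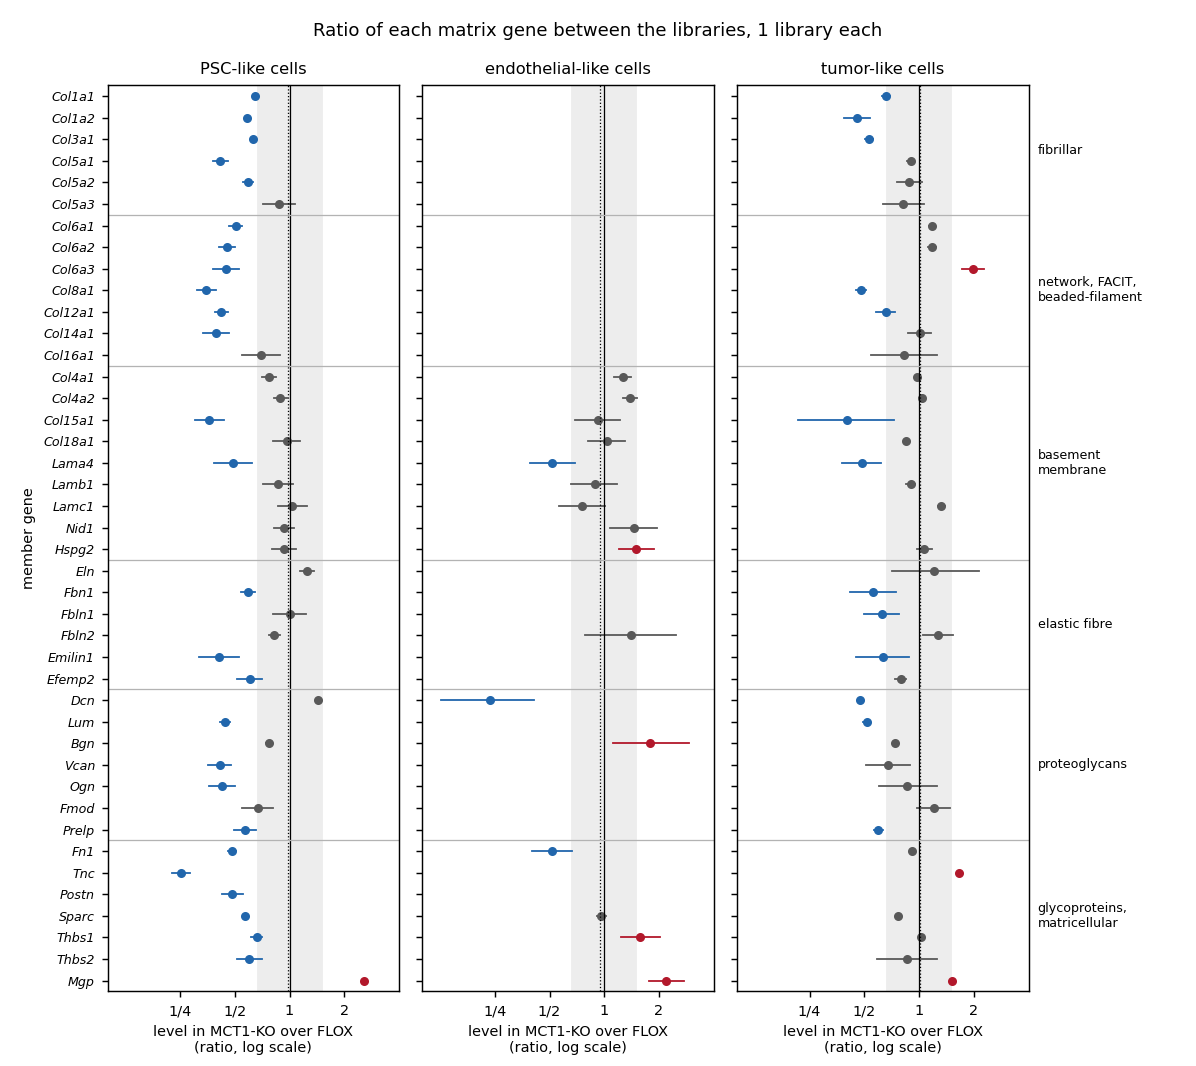
Level of each matrix gene in the library labelled MCT1-KO over FLOX (ratio, log scale, with 95% counting intervals) in PSC-like, endothelial-like and tumor-like cells, for genes with at least 50 UMIs; red and blue mark ratios of at least 1.5-fold in either direction, the grey band lies within it and the dotted line is the median of all genes. In PSC-like cells 26 genes are blue and Mgp alone is red, in endothelial-like cells 3 are blue and 4 red, and in tumor-like cells 13 are blue and 3 red.

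Of the 6 fibrillar collagens, 5 were at least 1.5-fold higher in PSC-like cells of the FLOX library. Col1a1, the main chain of type I collagen, stood at 5819 CPM in that library and 3777 CPM in the other, a ratio of 0.649 (0.633 to 0.665). Its partner Col1a2 had 6470 and 3765 CPM, a ratio of 0.582 (0.568 to 0.596). Type III collagen is often laid down with type I in young scar, and its chain Col3a1 had 5818 and 3657 CPM, a ratio of 0.629. The chains of type V collagen, which set fibril diameter, differed among themselves. Col5a1 had the ratio farthest from 1, at 584 and 243 CPM (0.417, 0.381 to 0.456). Col5a2 had 953 and 565 CPM (0.592). Col5a3 alone stayed within 1.5-fold, at 77.1 and 67.5 CPM, with an interval from 0.712 to 1.08. In cells of at most 2 immune UMIs the ratio turned for 4 of the 6, to 1.14 for Col1a1 and 1.46 for Col1a2, and to 1.02 for Col3a1 and 1.15 for Col5a2 with intervals that held 1. With cells classed one by one it turned for Col1a1, to 1.14. Classed so, Col1a2 (0.874), Col5a2 (0.884) and Col3a1 were under 1 but within 1.5-fold, while Col5a1 (0.647) stayed past it.

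The beaded-filament, network and fibril-associated collagens had the lowest ratios of any role, and 6 of 7 were at least 1.5-fold higher in the FLOX library. The type VI chains form beaded filaments around cells. Col6a1 stood at 593 and 300.4 CPM in the FLOX and MCT1-KO libraries (0.506), Col6a2 at 404 and 183 CPM (0.453) and Col6a3 at 176 and 78.6 CPM (0.446, 0.379 to 0.524). Col8a1, a short-chain network collagen of vessels and wounds, stood at 345 and 121 CPM (0.349, 0.308 to 0.396). Col12a1 and Col14a1 decorate the surface of fibrils. The first stood at 618 and 261 CPM (0.423) and the second at 176 and 69.4 CPM (0.395). Col16a1 was within 1.5-fold, at 63.2 and 43.9 CPM (0.695, 0.545 to 0.885). The ratio of Col12a1 turned to 2.01 in cells of at most 2 immune UMIs, with 15 UMIs on the FLOX side, and was 1.01 with cells classed one by one. Classed so, Col6a1 (0.724), Col6a2 (0.6674), Col6a3 (0.723) and Col8a1 (0.751) were also within 1.5-fold, while Col14a1 (0.523) stayed past it.

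Basement membrane genes lay nearer to 1, and 2 of 9 were at least 1.5-fold higher in the FLOX library. Col15a1, a collagen at the edge between basement membrane and fibrils, stood at 156 and 56.6 CPM (0.362, 0.300 to 0.435), and the laminin chain Lama4 at 76.7 and 37.5 CPM (0.490, 0.384 to 0.623). The other 7 had ratios from 0.769 for Col4a1, at 396 and 305 CPM, to 1.03 for Lamc1, at 91.0 and 94.2 CPM. For 5 of these 7, namely Col18a1, Lamb1, Lamc1, Nid1 and Hspg2, the counting interval held 1.

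Elastic fibre genes divided. Fibrillin-1 (Fbn1), the scaffold of microfibrils, stood at 504 and 298 CPM (0.591). The elastic fibre proteins Emilin1 and Efemp2 had ratios of 0.410 and 0.603, at 77.6 and 31.8 CPM and at 155 and 93.2 CPM. With cells classed one by one Fbn1 (0.803) and Efemp2 (0.766) were within 1.5-fold, while Emilin1 (0.369) stayed past it. Eln was on the other side, at 358 CPM in the FLOX library and 446 CPM in the other (1.24, 1.14 to 1.36), within 1.5-fold. Fbln1 had 71.7 and 71.9 CPM and Fbln2 708 and 584 CPM.

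Among the proteoglycans, 4 of 7 were at least 1.5-fold higher in the FLOX library while Dcn was higher in the other. Dcn, which binds collagen fibrils and growth factors, stood at 4479 and 6439 CPM, a ratio of 1.44 (1.40 to 1.47). Lumican (Lum), a close relative that also sits on fibrils, stood at 1207 and 535 CPM, a ratio of 0.443 (0.417 to 0.471), which turned to 1.23 in cells of at most 2 immune UMIs, with an interval that held 1. The hyaluronan-binding proteoglycan Vcan stood at 222 and 91.6 CPM (0.413). Ogn and Prelp had ratios of 0.426 and 0.567. With cells classed one by one Prelp was within 1.5-fold (0.771), while Lum (0.631), Vcan (0.614) and Ogn (0.349) stayed past it. Biglycan (Bgn), the nearest relative of decorin, stood at 1999 and 1537 CPM (0.769), and Fmod at 99.5 and 66.5 CPM (0.668), just inside the limit of 1.5-fold.

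The glycoproteins and matricellular proteins held both extremes of the set. Mgp stood at 4622 CPM in the FLOX library and 11883 CPM in the other, a ratio of 2.57 (2.52 to 2.63), while the other 6 were at least 1.5-fold higher in the FLOX library. Tnc, which is made in wounds and tumor stroma and loosens cell adhesion, stood at 491 and 125 CPM, the lowest ratio of all 42 members at 0.254 (0.226 to 0.285). In cells of at most 2 immune UMIs the Tnc ratio was 0.978 (0.540 to 1.94), with 12 UMIs on the FLOX side. With cells classed one by one it was 0.559 and no longer the lowest, as Ogn was at 0.349. Fn1, the fibril-forming ligand of integrins, stood at 1490 and 721 CPM (0.484). Postn had 266 and 129 CPM (0.485) and Sparc, a collagen-binding protein, 11980 and 6804 CPM (0.568). Thbs1 and Thbs2, secreted glycoproteins that act on cell adhesion and vessels, had ratios of 0.661 and 0.602. In cells of at most 2 immune UMIs the ratio turned for Sparc (1.09), and for Postn (1.15) and Thbs1 (1.04) with intervals that held 1. For Thbs2 the FLOX side of those cells held 1 UMI and the MCT1-KO side 152, too few for a size of the ratio, and with cells classed one by one it was 1.53. Classed so, Fn1 (0.741), Postn (0.894), Sparc (0.835) and Thbs1 (0.861) were within 1.5-fold, and Tnc stayed past it. In cells of at most 2 immune UMIs Fn1 was at 0.883 (0.696 to 1.13). For Tnc and Fn1 the level in the library labelled MCT1-KO was below that of its empty barcodes, at 0.861 and 0.864 times.

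PSC-like cells were clustered again, once more without matrix genes, and the library difference was not alike in every sub-cluster. Myofibroblast-like cells, led by Ltbp2, Nkd2 and Igfbp3, were 43 cells in the FLOX library (18.5% of PSC-like cells, 13.7 to 24.0%) and 39 in the other (9.38%, 6.75 to 12.6%). Inflammatory fibroblast-like cells, led by C7, Clec3b and Dpt, were 57 and 132 cells (24.5% and 31.7%), and mesothelial-like cells 31 and 82 (13.3% and 19.7%). Of the 4 sub-clusters without a name, 1 held few UMIs per cell (76 and 88 cells), 1 was led by macrophage C1q genes (12 and 41), 1 by the mural genes Rgs5 and Myh11 (14 and 21) and 1 by adipocyte genes (0 and 13). Inflammatory fibroblast-like is a loose name. That sub-cluster had 10 markers of the name detected, with Clec3b, Dpt and Pi16 among its 10 leading genes. The markers Il6, Cxcl1, C3 and Has1 were not among those leading genes. Myofibroblast-like is a loose name too. That sub-cluster had 7 markers of the name detected but 0 among its 10 leading genes. Their mean log2 fold was 2.44 there and 5.99 in the Rgs5-led cells, which stayed unnamed because their leading genes held as many markers of another class.

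The summed member level in myofibroblast-like cells was 71900 CPM in the FLOX library and 91104 CPM in the other, a ratio of 1.27 (1.25 to 1.29). Col1a1 had 8796 and 12330 CPM there (1.40, 1.35 to 1.46), whereas in inflammatory fibroblast-like cells it had 6427 and 4063 CPM (0.632, 0.604 to 0.662). Col3a1 likewise had a ratio of 1.17 in the first and 0.548 in the second. The summed ratio was 0.806 in inflammatory fibroblast-like cells, 1.02 in mesothelial-like cells, 0.576 in the sub-cluster with few UMIs, 0.830 in that led by C1q genes and 1.09 in that led by Rgs5. For fibrillar collagens alone it was 1.20 in myofibroblast-like cells and between 0.448 and 0.732 in the other 5.

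Among the 35 members with at least 50 UMIs in 3 or more sub-clusters, 10 were lower in the library labelled MCT1-KO in every such sub-cluster: Col5a1, Col6a1, Col6a2, Col8a1, Col15a1, Fn1, Fbn1, Vcan, Tnc and Efemp2. Of the 2716 genes that meet the same limit, 16.7% were lower in every such sub-cluster and 12.4% higher. Mgp was the 1 member higher in every such sub-cluster, 6 of 6, with ratios from 2.01 in mesothelial-like to 5.57 in Rgs5-led cells. Outside PSC-like cells Mgp was higher in the library labelled MCT1-KO as well. It stood at 75.5 and 560 CPM in T/NK-like cells, 78.5 and 147 CPM in myeloid-like cells and 908 and 1802 CPM in empty barcodes. Tnc had ratios of 0.177 in inflammatory fibroblast-like cells (602 and 107 CPM), 0.310 in myofibroblast-like cells (774 and 240 CPM) and 0.265 in Rgs5-led cells (852 and 226 CPM). Eln differed between sub-clusters, with a ratio of 3.51 in myofibroblast-like cells (205 and 722 CPM) and 0.854 in inflammatory fibroblast-like cells (872 and 744 CPM). Lum was at 1.24 in myofibroblast-like and at 0.181 in mesothelial-like cells.

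With only the myofibroblast-like and inflammatory fibroblast-like cells, 100 and 171 in number, 17 members were at least 1.5-fold higher in FLOX and 2 in MCT1-KO, with a median ratio of 0.718 and a summed ratio of 0.932. Of all genes, 14.4% and 9.99% were past the same limits in these cells. Median depth was 10422 and 6371 UMIs in inflammatory and 12729 and 10666 UMIs in myofibroblast-like cells of the FLOX and MCT1-KO libraries. The same cells had immune RNA at 660 and 407 CPM and at 1394 and 908 CPM, and the part of depth and of other cells' RNA was not tested.

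**Figure D4:**
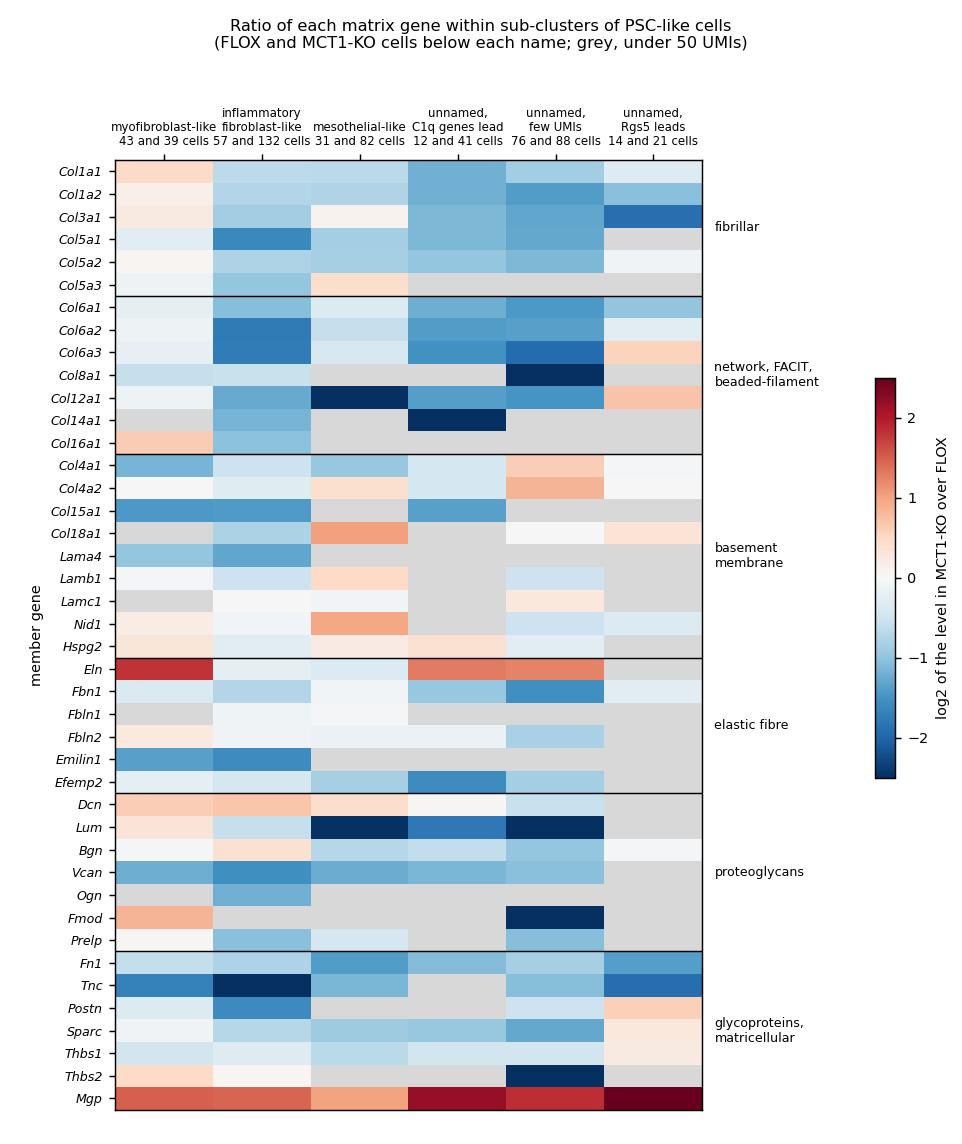
Log2 of the level in the library labelled MCT1-KO over FLOX for each matrix gene (rows) in 6 sub-clusters of PSC-like cells (columns, with cell numbers), red where higher in MCT1-KO, blue where lower and grey where the gene had under 50 UMIs; colours stop at 2.5 in either direction. Mgp is red in all 6 columns, Tnc is blue in the 5 where it is shown, and Col1a1 is red in the myofibroblast-like column, at a ratio of 1.40.

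In endothelial-like cells 5 of the 9 basement membrane members were higher in the library labelled MCT1-KO and 4 were lower. Of the 16 members with at least 50 UMIs, 4 were at least 1.5-fold higher in the library labelled MCT1-KO, where 7.36% of all genes were, and 3 were at least 1.5-fold higher in the FLOX library, where 14.3% of all genes were. The median ratio was 1.15 over these members and 0.953 over all 3545 genes, and the summed level of all 42 members was 10784 and 11684 CPM (1.08, 1.05 to 1.12), or 0.973 as a mean over cells. The other 26 members had under 50 UMIs over both libraries in these cells.

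The collagen IV chains, the network of the vessel basement membrane, stood at 1212 and 1528 CPM for Col4a1 (1.26, 1.14 to 1.40) and at 1559 and 2155 CPM for Col4a2 (1.38, 1.26 to 1.51). Hspg2, the heparan sulfate proteoglycan perlecan, stood at 256 and 385 CPM (interval 1.21 to 1.87) and Nid1 at 143 and 208 CPM (1.45, 1.08 to 1.95). Lama4, the laminin alpha chain of vessels, went the other way at 291 and 151 CPM (0.519, 0.388 to 0.687), though in cells of at most 2 immune UMIs, with 6 and 35 UMIs, it was 1.40 with an interval that held 1. Its partners Lamb1 and Lamc1 had ratios of 0.885 and 0.756, with intervals that held 1. Sparc, which endothelial cells make in quantity, stood at 5155 and 4968 CPM (0.964, 0.914 to 1.02). Col15a1 and Col18a1 had ratios of 0.921 and 1.03, again with intervals that held 1, and so had Fbln2, at 40.7 and 56.9 CPM.

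The remaining endothelial differences lay at levels below the background of empty barcodes. Mgp stood at 207 and 451 CPM (2.18), or 0.228 and 0.250 times background, Bgn at 51.3 and 92.0 CPM (1.79) and Thbs1 at 193 and 304 CPM (1.58). Dcn stood at 139 and 32.8 CPM (0.237) and Fn1 at 356 and 184 CPM (0.517). With free RNA subtracted the ratios were 8.63 for Mgp and 7.53 for Bgn, on 19 and 6 FLOX UMIs. Dcn was then at 0.0574, on 2 MCT1-KO UMIs, Thbs1 at 1.85 and Fn1 at 0.608. Endothelial-like cells of the 2 libraries differed in median depth, 4041 against 1792 UMIs, and in immune RNA, 2901 against 1007 CPM. Their part in these ratios was not tested.

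The members were a small share of the UMIs of tumor-like cells, 0.674% and 0.642%, beside 0.505% and 0.528% in empty barcodes. These cells held 57.4% and 62.6% of all member UMIs, close to their 55.6% and 67.1% of all UMIs of kept cells. Of the 40 members with at least 50 UMIs, 3 were at least 1.5-fold higher in the library labelled MCT1-KO, where 5.55% of all genes were, and 13 were at least 1.5-fold higher in the FLOX library, where 8.64% of all genes were. The median ratio was 0.854 over the members and 1.01 over all 13222 genes, and the summed level was 6744 and 6419 CPM (0.952, 0.947 to 0.957). In cells of at most 2 immune UMIs, 160 and 590 in number, the summed ratio turned to 1.26. These cells held 210793 and 3583123 UMIs. The limit favours cells of low depth, and the median depth of the whole class was 15889 and 15848 UMIs per cell. Sums by role had ratios of 0.701 for fibrillar collagens, 0.527 for proteoglycans, 0.805 for elastic fibre, 0.980 for basement membrane, 1.01 for beaded-filament, network and fibril-associated collagens and 1.10 for glycoproteins and matricellular proteins.

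The 3 members at least 1.5-fold higher in the library labelled MCT1-KO were Col6a3, Tnc and Mgp. Tnc stood at 224 and 372 CPM in tumor-like cells (1.66, 1.61 to 1.70), against 491 and 125 CPM in PSC-like cells. Col6a3 stood at 7.71 and 15.2 CPM (1.98, 1.72 to 2.28), against 176 and 78.6 CPM in PSC-like cells. Its level in tumor-like cells was 0.912 and 1.41 times background. Mgp stood at 1148 and 1735 CPM (1.51, 1.49 to 1.53), and its level in empty barcodes was 908 and 1802 CPM. The other type VI chains had ratios of 1.18 each in tumor-like cells, for Col6a1 at 129 and 152 CPM and for Col6a2 at 69.3 and 81.4 CPM.

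The 13 members on the FLOX side ran through the fibrillar collagens Col1a1, Col1a2 and Col3a1, the collagens Col8a1, Col12a1 and Col15a1, Lama4, the elastic fibre genes Fbn1, Fbln1 and Emilin1, and the proteoglycans Dcn, Lum and Prelp. Dcn stood at 948 and 449 CPM (0.473, 0.465 to 0.481), opposite to its ratio of 1.44 in PSC-like cells. Lum stood at 108 and 55.4 CPM (0.515). In cells of at most 2 immune UMIs these ratios turned to 1.43 for Dcn and 3.12 for Lum, the latter with 7 UMIs on the FLOX side. With free RNA subtracted that of Col15a1 was 1.47, on 5 and 13 UMIs and with an interval that held 1. Col8a1 stood at 65.0 and 31.3 CPM (0.481, 0.452 to 0.513). Col1a1, Col1a2 and Col3a1 stood at 86.8 and 56.9 CPM, 10.5 and 4.78 CPM and 91.4 and 48.7 CPM. Each was under its own level in empty barcodes. So were Col12a1, Col15a1, Fbn1, Fbln1 and Emilin1 in both libraries. Col12a1 was at 0.799 and 0.766 times and Col15a1 at 0.160 and 0.129 times background. Fbn1 stood at 3.09 and 1.72 CPM, Fbln1 at 4.85 and 3.04 CPM and Emilin1 at 2.24 and 1.41 CPM. Lama4 was under that level in MCT1-KO alone, at 2.10 against 2.89 CPM. Dcn, Lum, Prelp and Col8a1 were above theirs in both. A level under that of empty barcodes does not show that tumor-like cells make the gene. Fn1 stood at 1395 and 1273 CPM (0.912), 1.36 and 1.53 times background.

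The directions were compared over the 6 tumor-like clusters, which are parts of the same libraries and not replicates. Of the 40 members with at least 50 UMIs, 4 were higher in the library labelled MCT1-KO in 6 of 6 clusters, where 14.3% of all genes were, and 14 were lower in 6 of 6, where 12.5% of all genes were. The 4 were Tnc, Mgp, Col6a1 and Lamc1, with ratios from 1.27 to 2.01 for Tnc and from 1.30 to 2.75 for Mgp. Col6a3 was higher in 5 of 6. Among the 14 were Col1a1, Col3a1, Col8a1, Lum, Prelp, Sparc, Bgn and Fn1, with ratios from 0.234 to 0.684 for Col8a1 and from 0.775 to 0.956 for Fn1. Dcn was lower in 5 of 6 and higher in the cluster led by Areg, at 1.39. Members also differed between clusters within a library: Tnc ranged from 96.9 CPM in the cluster led by Msln to 360 CPM in that led by Lif in the FLOX library, and from 146 CPM in the cluster led by Msln to 581 CPM in that led by Areg in the other. Cells of the dividing cluster, led by Cdc20, had the lowest Dcn, at 255 and 134 CPM.

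**Figure D5:**
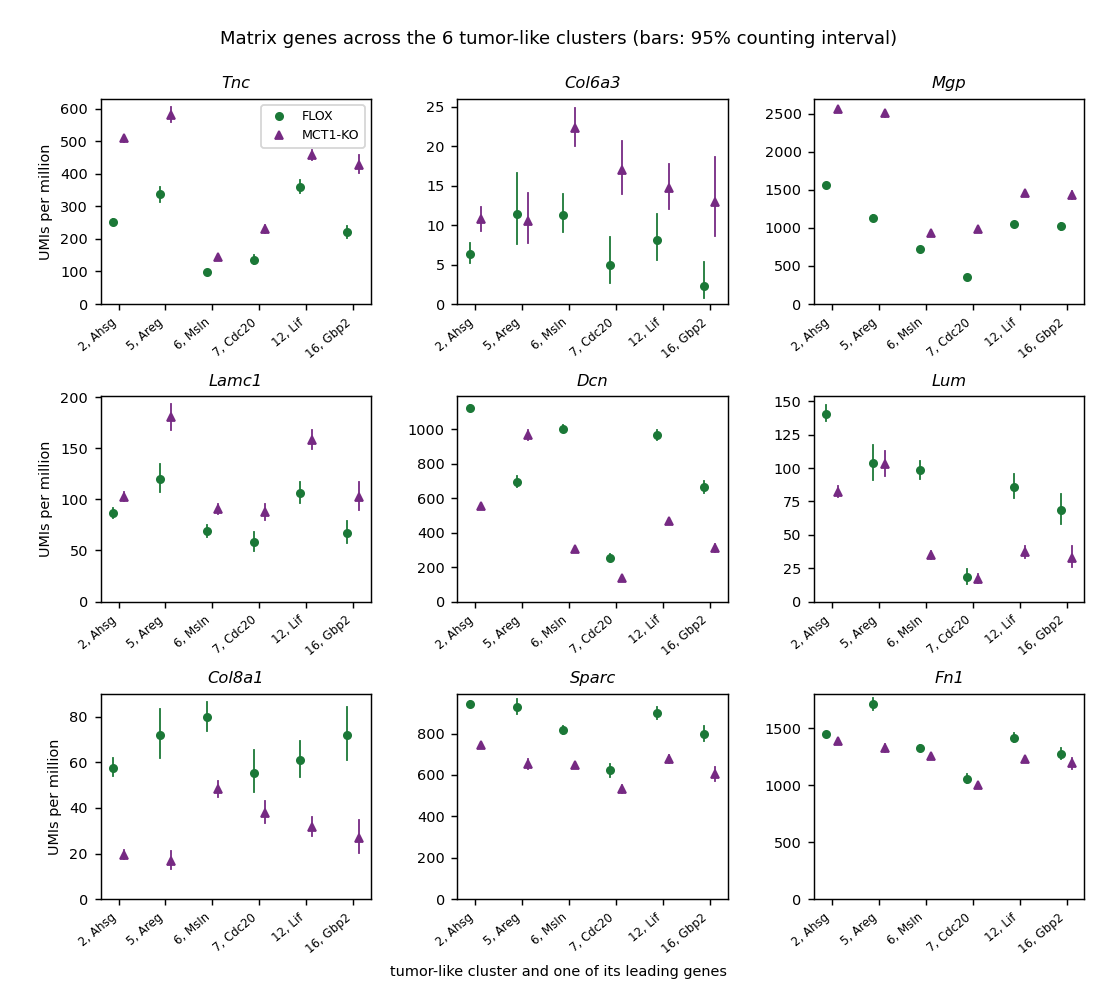
Level of 9 matrix genes (CPM, axes from 0) in each of the 6 tumor-like clusters, named by number and a leading gene, with circles for FLOX, triangles for MCT1-KO and bars for 95% counting intervals. Tnc and Mgp are higher in MCT1-KO in all 6 clusters, Col8a1, Sparc and Fn1 lower in all 6, and Dcn is higher in MCT1-KO only in cluster 5, led by Areg.

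The balance between chains of the same protein differed between classes. Type I collagen joins chains of Col1a1 and Col1a2. There were 1.11 and 0.997 UMIs of Col1a2 per UMI of Col1a1 in PSC-like cells, 0.282 and 0.365 in empty barcodes, 0.446 and 0.439 in myeloid-like cells, and 0.121 and 0.0839 in tumor-like cells, whose exact intervals (0.108 to 0.135 and 0.0737 to 0.0953) lay apart from those of the other 3. In tumor-like cells both were below background, Col1a1 at 0.298 and 0.296 times and Col1a2 at 0.128 and 0.0682 times. Col3a1 per Col1a1, which are chains of different collagens, was 1.00 and 0.968 in PSC-like and 1.05 and 0.856 in tumor-like cells. For collagen IV, Col4a2 per Col4a1 was 1.29 and 1.41 in endothelial-like, 1.10 and 1.27 in PSC-like and 1.08 and 1.14 in tumor-like cells, against 1.74 in empty barcodes of both libraries. For type VI collagen, Col6a2 per Col6a1 was 0.681 and 0.609 in PSC-like and 0.537 and 0.536 in tumor-like cells, against 0.374 and 0.307. For laminin, Lamb1 per Lamc1 was 0.889 and 1.04 in endothelial-like cells, 0.661 and 0.447 in tumor-like cells and 0.171 and 0.148 in myeloid-like cells, the lowest of these classes.

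Genes that fold, trim and crosslink collagen were taken as a further list of 18. In PSC-like cells 7 of 18 were at least 1.5-fold higher in FLOX and 0 in MCT1-KO, where 10.9% and 10.1% of all genes were, with a median ratio of 0.697. Serpinh1, the collagen chaperone HSP47, stood at 811 and 332 CPM (0.409, 0.379 to 0.442). The lysyl hydroxylase Plod2, which shapes crosslinks, stood at 330 and 92.3 CPM (0.280), and the prolyl hydroxylases P4ha1 and P4ha3 at 127 and 64.0 CPM (0.502) and at 36.8 and 9.86 CPM (0.268). Loxl2, P3h1 and Pcolce had ratios of 0.440, 0.618 and 0.525. The crosslinking enzyme Lox stood at 233 and 253 CPM (1.09, 0.973 to 1.22). In tumor-like cells 4 of 17 were past the limit on the FLOX side, P4ha1 (0.341), Serpinh1 (0.387), Plod2 (0.531) and P4ha2 (0.534), and 0 on the other, where 8.64% and 5.55% of all genes were. In endothelial-like cells 3 of 10 were on the FLOX side and 2 on the other, against 14.3% and 7.36% of all genes, with Serpinh1 at 455 and 258 CPM (0.567).

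Other basement membrane chains and matrix receptors lay nearer to 1 in PSC-like cells. Their counts past 1.5-fold, 1 of 8 further chains and 2 of 14 receptors with 50 UMIs, all on the FLOX side, were near the 10.9% of all genes. The 1 chain was the laminin chain Lama1, at 27.8 and 11.1 CPM (0.401), and the median ratio over the chains was 1.18. The 2 receptors were Itga11, a collagen-binding integrin of fibroblasts, at 21.5 and 4.14 CPM (0.192, 0.0955 to 0.360), and Itgb5 at 95.5 and 50.3 CPM (0.526). The median over receptors was 0.947. The collagen receptor Ddr2 stood at 100.4 and 119.6 CPM (1.19), and Itga5, of the fibronectin receptor, at 473 and 605 CPM (1.28, 1.19 to 1.38). In tumor-like cells 3 of 9 chains and 2 of 16 receptors, Itga2 (0.546) and Itgb8 (0.540), were past the limit on the FLOX side, where 8.64% of all genes were. In endothelial-like cells 1 of 2 chains and 2 of 10 receptors were on the FLOX side and 2 of 10 receptors on the other, against 14.3% and 7.36% of all genes.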

How the data were processed

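Suspensions of pancreatic tumors, 1 library per condition, were sequenced with a droplet or microwell 3′ kit; per the labels this was SeekOne MM, while the methods name other kits of the same maker and of 10x. The deposited files hold raw UMI counts per gene and barcode, which the authors made with Fastp and SeekOneTools; the methods name a human genome (GRCh38), but the files list 32285 mouse Ensembl genes. Barcodes with at least 500 UMIs, 200 to 5000 genes and up to 8% mitochondrial UMIs were kept. Cells were integrated and clustered with Seurat 5.3.0 (2000 variable genes, 20 dimensions, resolution 0.8) without 98 matrix genes, and clusters were named by fixed markers, with at least 3 markers found; the naming limits were set after the clusters had been seen. UMIs were summed per class and library and scaled to CPM. Ratios carry a conditional exact 95% interval, shares a Clopper-Pearson interval, and both reflect counting error alone. No test was run, since neither condition was repeated; a gene with at least 50 UMIs counts as past the limit at 1.5-fold. The code was tested on simulated data. Doublets were scored against simulated pairs and kept, and left out as an alternative. The members and lists were chosen with earlier results of these data known. All members were described, and the other genes named were those of their lists past 1.5-fold, while Lox, Ddr2 and Itga5 were chosen after their values were seen. Python 3.11.15 and SciPy 1.17.1 were used, and upstream sequences came from RefSeq on GRCm38.p6.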

Additional observations from a re-analysis of the deposited data

Results flagged for a closer look

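For 3 genes the ratio of the library labelled MCT1-KO to FLOX was past 1.5-fold on opposite sides in 2 cell classes; with 1 library per condition none of these differences was tested. The ratio of Tnc was 1.66 in tumor-like cells and 0.254 in PSC-like cells. Its PSC-like level in the library labelled MCT1-KO was 0.861 times background. In cells of at most 2 immune UMIs the Tnc ratio was 1.68 in tumor-like cells. In PSC-like cells of that kind it was 0.978 (0.540 to 1.94), on 12 FLOX UMIs. For Col6a3 the ratio was 1.98 in tumor-like cells and 0.446 in PSC-like cells. Its tumor-like level was 0.912 and 1.41 times background in the FLOX and MCT1-KO libraries. For Thbs1 the ratio was 1.58 in endothelial-like cells and 0.661 in PSC-like cells. Its endothelial-like level was 0.628 and 0.993 times background. In cells of at most 2 immune UMIs the Thbs1 ratio was 1.05 in endothelial-like and 1.04 in PSC-like cells, with intervals that held 1.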

How the results depend on the processing

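No paired analysis was possible because each condition is 1 library, and for the same reason no replicate could be left out. Of the values that answer a comparison, 114 kept their size, 36 moved and 4 reversed over the alternatives; of those for single genes, 415, 141 and 17 did. With a 2-fold limit, 15 of 42 members were higher in FLOX in PSC-like cells (3.47% of all genes), 1 of 16 in each direction in endothelial-like cells (1.92% higher in MCT1-KO, 4.29% in FLOX), and 5 of 40 in FLOX and 0 in MCT1-KO in tumor-like cells (3.45% and 1.63%). With at least 10 UMIs the endothelial-like counts were 8 of 30 higher in MCT1-KO and 7 in FLOX (12.7% and 21.8% of all genes), and with no minimum 9 and 9 of 36 (15.5% and 21.8%). With cells of at most 2 immune UMIs, the summed ratio was 1.23 in PSC-like cells (6 members higher in MCT1-KO, 11 in FLOX), 1.25 in endothelial-like cells (1 in FLOX) and 1.26 in tumor-like cells (5 and 2, with 0 over background, against 1.51% of all genes). Of all genes, 25.2% and 17.1% were past these limits in PSC-like, 16.2% and 18.9% in endothelial-like and 17.8% and 12.2% in tumor-like cells of this kind. The immune limit favours cells of low depth. FLOX and MCT1-KO cells of this kind held 83083 and 884961 UMIs in the PSC-like class. In the endothelial-like class they held 67543 and 280717 UMIs, and in the tumor-like class 210793 and 3583123 UMIs. The PSC-like ratio reversed for Col1a1 (1.14), Col1a2 (1.46), Col3a1 (1.02), Col5a2 (1.15), Col12a1 (2.01), Lum (1.23), Postn (1.15), Sparc (1.09), Thbs1 (1.04) and Thbs2 (14.3, on 1 FLOX UMI, with an interval of 2.52 to 567), the endothelial-like ratio of Lama4 (1.40, on 6 FLOX UMIs), and the tumor-like ratios of Dcn (1.43) and Lum (3.12, on 7 FLOX UMIs). With cells classed one by one, the PSC-like sum was 1.01 (4 and 9, against 6.54% and 10.03% of all genes), with Col1a1 at 1.14, Col12a1 at 1.01 and Thbs2 at 1.53, the endothelial-like FLOX count 1, and the tumor-like sum 0.942 with 0 over background (1.70% of all genes). Of all genes, 13.9% were higher in FLOX in endothelial-like cells so classed. With the fibroblast-like sub-clusters only, chosen after seeing the data, the PSC-like values were 0.932, 2 and 17. With free RNA subtracted, the sums were 0.658, 1.01 and 0.926 in PSC-like, endothelial-like and tumor-like cells, with 2 of 14 endothelial-like members higher in MCT1-KO (7.94% of all genes), 8 of 38 tumor-like members higher in FLOX (6.90%) and tumor-like Col15a1 at 1.47 (5 FLOX UMIs). The share subtracted was taken from acinar genes and may be too high for matrix genes. Without likely doublets the PSC-like sum was 0.859. As a mean over cells the sums were 0.905, 0.973 and 0.981, with 3 of 42 PSC-like and 2 of 20 endothelial-like members higher in MCT1-KO (14.3% and 10.8% of all genes), 5 of 20 endothelial-like members higher in FLOX (21.4%) and 0 tumor-like members over background (1.30%). For 4 tumor-like ratios whose FLOX level was 0 under an alternative, no value could be given. The cause of these shifts was not tested.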
